A study of Mus musculus with 12 samples.

Results

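White gastrocnemius, the pale part of a calf muscle, was profiled in 6 wild-type mice, which make up 6 of the 12 arrays of the series and were chosen by their wild-type sample titles. All 6 were male C57BL/6 mice of generation F5, aged 17 to 18 weeks, kept on a daily light-dark cycle and fasted overnight. They were littermates of the 6 transgenic mice, which carry AMPK gamma3 with the R225Q mutation and share strain, sex, age, generation and fast with them. Each array, an Affymetrix MOE430A chip, was given the total RNA of 1 mouse. The 6 arrays carry 6 distinct animal numbers and were all recorded as right muscle. They are called replicates 7 to 12 here. Every mouse had been fasted, so the levels describe the fasted state and no fed muscle stands beside them. The promoter that drives the transgene is not given in the sources used here, and the transgenic arrays appear below as a second group of mice in which a spread, an order or the contrast of hybridization days was looked at again.

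Skeletal muscle fibres are built from isoforms: most proteins of the contractile apparatus, of calcium handling and of the main fuel pathways exist as several gene products, and fibre types differ in which of them they use. White muscle holds mainly fast glycolytic fibres, which contract quickly, break down glycogen and make lactate, while slow oxidative fibres use another set of myosins, troponins and calcium pumps. An overnight fast moves muscle away from glucose oxidation and towards fatty acids, and raises genes of protein breakdown. AMPK, the energy sensor that the transgene alters, carries a gamma3 subunit mainly in fast muscle. The array offered no singly annotated probe set for the gamma3 gene Prkag3 or for the alpha subunits, which are not analysed here. Among the subunits that were measured, Prkag1 had a mean of 9.35 ± 0.07, Prkag2 of 5.99 ± 0.11 and Prkab1 of 7.89 ± 0.09 (log2 intensity, SD, n = 6). Levels throughout are log2 of the deposited array intensities, and 1 unit is a 2-fold difference in intensity.

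1 array stood apart. Over all 22626 probe sets the 15 pairs of wild-type arrays correlated with Pearson's r between 0.9857 and 0.9970, and the lowest value was 0.9943 once replicate 7 was set aside. The median intensity was 98.4 to 103.1 on the linear scale, so the arrays were close in overall brightness. The 3′ minus 5′ difference of the Gapdh control probe sets, which widens when RNA is shortened from its 5′ end, was 0.18 on replicate 7 and lay between -0.09 and 0.00 on the others. Replicate 7 was also the only wild-type array from a chip lot that supplied 2 of the 12 arrays, the others coming from a lot of 10. The other array of its lot, from transgenic mouse 1, had the same Gapdh difference of 0.18. Its actin difference of -0.108 lay just above the range of the lot of 10, -0.221 to -0.112. On replicate 7 the actin difference was 0.03. Biology of that mouse, its RNA and its chip cannot be told apart. SDs of single genes below include replicate 7, which made the SD of 43 of the 168 named genes over 1.5 times as large as it was without that array, and list spreads and the main such genes are also given without it.

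Levels ranged from 3.26 to 14.24, with a median of 6.65, and 1% of probe sets lay above 11.65. A probe set's intensity depends on how its probes bind as well as on the amount of RNA, so the order of genes is an order of array signal. A yardstick came from the 4956 genes with several probe sets, 40.0% of the 12393 genes measured. Probe sets of 1 gene lay a median of 1.498 apart and 3.64 apart at the 90th percentile. Each gene is given by its brightest probe set. A second yardstick came from 8 genes of other tissues, such as albumin and insulin, which muscle is not known to make. Their levels ran from 4.03 to 7.83, with the highest at Ins2, and 3732 genes (30.1%) lay above that level. A gene below it cannot be called present or absent from these values, and the distance of a brighter family member to it is one of array signal only. The RNA came from whole tissue, in which fewer cells of a type and less RNA per cell cannot be told apart.

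The brightest genes belonged to the machinery of fast contraction. Tpm1, a tropomyosin of the thin filament, led at 14.24 ± 0.02, followed by the glycolytic enzyme Aldoa at 14.04 ± 0.05 and the fast calcium pump Atp2a1 at 14.00 ± 0.02. Skeletal actin Acta1 stood at 13.95 ± 0.06, muscle creatine kinase Ckm at 13.92 ± 0.03, fast troponin I Tnni2 at 13.90 ± 0.03 and fast troponin C Tnnc2 at 13.80 ± 0.05. Actn3, the alpha-actinin of fast Z-discs, the calcium buffer Pvalb, the light chains Mylpf and Myl1 and the heavy chain Myh4 filled ranks 8 to 12, at 13.72 to 13.44. The first 12 genes thus hold 10 parts of the sarcomere or of its calcium cycle and 2 enzymes of energy supply, Aldoa and Ckm.

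Ranks 13 to 30 mixed 3 kinds of genes. Enzymes of sugar use were Eno3 at 13.31 ± 0.06, Pfkm at 13.23 ± 0.05, glycogen phosphorylase Pygm at 13.15 ± 0.06 and Ldha at 13.13 ± 0.06. Mitochondrial energy genes were Uqcrb, a subunit of complex III, at 13.20 ± 0.16, the adenine nucleotide carrier Slc25a4 at 13.18 ± 0.07, and ND5, encoded by the mitochondrial genome, at 12.97 ± 0.15. Structural genes were Trdn, Ttn, Tcap, Tnnt3, Cmya5 and Myoz1, between 13.14 and 12.92, and the tubulin Tuba4a at 12.98. The rest were Tpt1, the ferritin heavy chain Fth1, the selenoprotein Selenow and the carbonic anhydrase Car3, at 13.31, 13.18, 13.10 and 12.95.

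Of the 30 brightest genes, 26 were among the 30 brightest on all 6 arrays, and 27 to 29 on each array. The SD of these 30 genes had a median of 0.0607 and ran from 0.0178 for Tpm1 to 0.174 for Myl1. Without replicate 7 the median was 0.0407 and the range 0.0124 to 0.111, and the SDs of Myl1, Uqcrb, Tnnt3 and ND5 were 0.029, 0.045, 0.030 and 0.026. Array signal can level off for abundant RNAs, which would lower the spread that such bright genes show, and this was not tested. Neighbours in the order mostly lay closer together than these SDs: Eno3 and Tpt1 had means of 13.31 and 13.31, and the 30th and 31st genes had means of 12.92 and 12.90. The order by the transgenic mean shared 29 of the 30 genes and 95 of the brightest 100. Replicate 7 held the lowest value of 14 of the 30 genes and the highest of 8, against 31.0% and 30.8% of all genes above the median level.

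Signal was spread over many genes. The 10 brightest genes held 3.89% of the linear signal summed over all genes, with 3.765% to 3.997% on single arrays, and the 100 brightest held 17.6%. The 1000 brightest held 51.2%, between 49.6% and 51.9% on single arrays. Because intensity also depends on how probes bind, these shares describe signal and not the share of RNA.

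**Figure D1:**
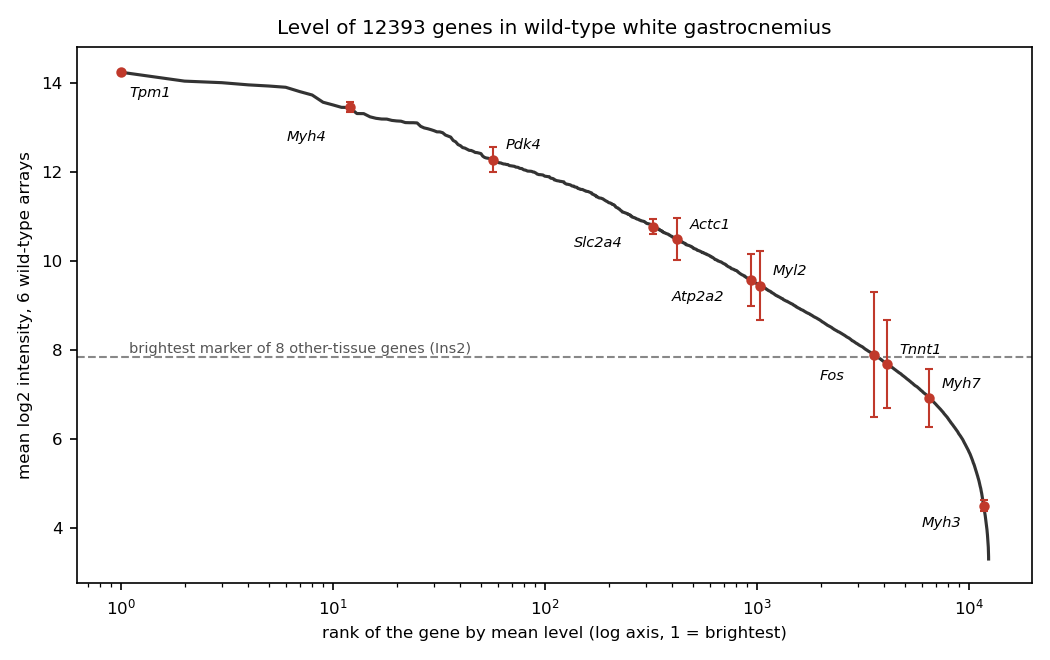
Mean log2 intensity over the 6 wild-type arrays (y axis) of 12393 genes against their rank (log x axis); red points are example genes with the SD over 6 arrays as bars, and the dashed line marks Ins2 at 7.83. Fast fibre genes such as Myh4 sit at the top with short bars, and Tnnt1 and Fos near the dashed line have long ones.

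The sequences just before 5 of these genes are shown because their levels carry the results: 2 actins of 1 family, the fast heavy chain, and the 2 genes Tnnt1 and Fos that varied most within their classes. Each runs from 250 bases before to 50 bases after the annotated start, 5′ to 3′ on the gene's strand, from RefSeq on build GRCm38.p6. Capitals mark TATAAA, the CArG box of serum response factor and the MEF2 motif, all read on both strands.

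Acta1 (chr8:123894726-123895025, minus strand): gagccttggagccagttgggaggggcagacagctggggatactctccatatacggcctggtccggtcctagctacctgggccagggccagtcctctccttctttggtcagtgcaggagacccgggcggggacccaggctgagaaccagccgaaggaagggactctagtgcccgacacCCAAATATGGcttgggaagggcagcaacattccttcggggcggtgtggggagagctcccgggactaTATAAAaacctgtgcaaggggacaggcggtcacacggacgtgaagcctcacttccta
Actc1 (chr2:114052826-114053125, minus strand): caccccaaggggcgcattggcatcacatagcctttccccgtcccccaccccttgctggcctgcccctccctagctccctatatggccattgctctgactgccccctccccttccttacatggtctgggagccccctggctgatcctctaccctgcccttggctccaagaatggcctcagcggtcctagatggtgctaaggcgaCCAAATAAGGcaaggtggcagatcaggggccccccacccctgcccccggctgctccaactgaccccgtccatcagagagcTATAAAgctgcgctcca
Myh4 (chr11:67237562-67237861, plus strand): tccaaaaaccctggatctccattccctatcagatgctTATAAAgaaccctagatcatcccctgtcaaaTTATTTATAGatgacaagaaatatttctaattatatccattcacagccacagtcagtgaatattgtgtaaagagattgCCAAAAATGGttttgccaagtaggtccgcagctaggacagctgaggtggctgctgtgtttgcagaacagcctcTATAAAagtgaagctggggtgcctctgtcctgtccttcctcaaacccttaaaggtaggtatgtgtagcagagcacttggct
Tnnt1 (chr7:4515926-4516225, minus strand): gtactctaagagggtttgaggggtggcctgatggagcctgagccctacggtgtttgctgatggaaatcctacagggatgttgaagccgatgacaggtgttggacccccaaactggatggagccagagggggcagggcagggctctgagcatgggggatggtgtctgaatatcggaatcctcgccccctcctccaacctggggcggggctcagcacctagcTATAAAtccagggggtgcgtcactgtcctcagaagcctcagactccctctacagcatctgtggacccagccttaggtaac
Fos (chr12:85473640-85473939, plus strand): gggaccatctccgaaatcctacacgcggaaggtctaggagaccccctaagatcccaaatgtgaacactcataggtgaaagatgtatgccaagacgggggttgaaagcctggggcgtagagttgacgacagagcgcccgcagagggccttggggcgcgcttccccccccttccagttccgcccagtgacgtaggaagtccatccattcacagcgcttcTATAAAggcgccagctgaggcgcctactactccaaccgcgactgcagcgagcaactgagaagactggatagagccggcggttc

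The windows of both actins held 1 CArG match each, at -73 in Acta1 and -47 in Actc1. Each also held 1 TATAAA, at -7 in Acta1 and at 33, past the annotated start, in Actc1. All these positions are counted from the annotated start. The window of Myh4 held 3 TATAAA matches, 1 CArG match and 1 MEF2 match. Of its TATAAA matches 1 lies on the other strand inside the MEF2 match. In Tnnt1 and Fos a TATAAA began at -30 and -33, the place usual for such a box, and neither window held the other motifs. A match is a description of letters and not of a bound site.

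Among the 9887 measured genes with such a window, 11.9% held TATAAA, 1.75% the CArG box and 2.44% the MEF2 motif. Of the 100 brightest genes 79 had a window, and 14 (17.7%), 5 (6.33%) and 6 (7.59%) of them held these motifs. Of the 100 most variable genes 80 had a window, and 23 (28.8%) held TATAAA, 3 (3.75%) the CArG box and 5 (6.25%) the MEF2 motif. Those 100 were taken from the genes above the median level, of which 5951 had a window. Over these 5951 genes the shares were 9.71%, 1.88% and 2.40%. Of the 29 respiratory chain genes with a window, 1 held TATAAA and 0 held either of the others. Matches to TATAAA and MEF2 overlap in 71 of the 108 windows that hold both, and no test was made of these shares.

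Within the contractile families the fast isoform was the brightest measured member, and the slow and embryonic ones lay far below. In the myosin heavy chain family Myh4, the chain of the fastest fibres, had 13.22, 13.49, 13.49, 13.50, 13.50 and 13.47 on replicates 7 to 12. Myh1, the chain of type IIX fibres, averaged 12.17 ± 0.15 and Myh2, that of type IIA fibres, 11.73 ± 0.29. Myh7, the slow chain, stood at 6.92 ± 0.66, and the embryonic Myh3 and neonatal Myh8 at 4.50 ± 0.12 and 4.82 ± 0.05. The gap from Myh4 to Myh1 was 1.27, under the median distance between probe sets of 1 gene, so their order does not exceed that yardstick. Myh1 had 3 probe sets, of which the dimmest read 5.34. Myh3, Myh2, Myh1, Myh4 and Myh8 follow each other directly along chromosome 11 in the RefSeq table, and the 3 adult fast chains lie between the 2 developmental ones.

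Each troponin family was led by its fast form. Tnnc2 and Tnnc1, the fast and slow forms of the calcium-binding subunit, had means of 13.80 ± 0.05 and 7.75 ± 0.82. The inhibitory subunits Tnni2, Tnni1 and the cardiac Tnni3 had 13.90 ± 0.03, 7.67 ± 0.69 and 6.00 ± 0.11. The tropomyosin-binding subunits Tnnt3, Tnnt1 and the cardiac Tnnt2 had 13.10 ± 0.16, 7.68 ± 0.998 and 4.83 ± 0.09. The gap between fast and slow form passed the 90th percentile of the yardstick in each of the 3. The means of the slow forms lay just under the other-tissue level, and their SDs were among the 20 largest of the data set.

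Light chains, actins and Z-disc proteins followed the same order with closer seconds. The fast light chains Mylpf and Myl1 were within 0.06 of each other, and Mylpf was ahead on 3 of 6 arrays. Their slow counterparts Myl2 and Myl3 stood at 9.44 ± 0.78 and 8.99 ± 0.52. Acta1 was followed by cytoplasmic Actb at 12.08 ± 0.11, cardiac actin Actc1 at 10.48 ± 0.47 and smooth muscle Acta2 at 10.02 ± 0.32. Actc1 had 11.002, 10.89, 10.63, 9.77, 10.48 and 10.14 on replicates 7 to 12, a larger spread than Acta1 had. Actn3 exceeded Actn2, the sarcomeric alpha-actinin of all fibre types, by 2.68.

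Calcium handling was led by the skeletal muscle forms. Atp2a1 exceeded Atp2a2, the slow and cardiac pump at 9.56 ± 0.58, by 4.44. Casq1, the calcium store protein of fast fibres, had 12.78 ± 0.10 and Casq2 7.69 ± 0.17. The release channel Ryr1 had 12.80 ± 0.03, against 7.04 ± 0.09 for Ryr3 and 5.45 ± 0.18 for Ryr2. The pump inhibitors Pln and Sln were both dim, at 7.27 ± 0.19 and 6.23 ± 0.19, below the other-tissue level.

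In the glycolytic families given here 1 measured form stood well above the others. Not every listed form was measured: aldolase and enolase had 2 of 3 and lactate dehydrogenase 3 of 4. Pfkm, Aldoa and Eno3 have their levels above, while Pfkl had 7.51 ± 0.08, the brain form Aldoc 6.81 ± 0.15 and the neuronal Eno2 4.49 ± 0.14, all below the other-tissue level. Pgk1 had 12.88 ± 0.26, with an SD of 0.077 without replicate 7, and the testis form Pgk2 4.30 ± 0.09. Pgam2, the muscle phosphoglycerate mutase, had 12.54 ± 0.14 and Pgam1 6.57 ± 0.10. The lactate dehydrogenase of the muscle type, Ldha, exceeded the heart type Ldhb by 3.20, and Ldhb was itself bright at 9.93 ± 0.18. All 9 measured glycolysis genes lay above the other-tissue level, with a median of 12.88, and their median SD was 0.0555.

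Genes of glucose entry and glycogen use also had 1 leading measured form each, with 2 of the 4 listed hexokinases measured. The insulin-responsive transporter Slc2a4 had 10.77 ± 0.16, followed by Slc2a8 at 8.41 ± 0.18 and Slc2a3 at 8.29 ± 0.14. Slc2a1 was lower in the family, at 6.92 ± 0.10. The hexokinase Hk2 had 10.80 ± 0.12 and Hk1 6.43 ± 0.09. The lactate exporter Slc16a3 had 10.29 ± 0.18, and Slc16a1, the form of oxidative fibres, 7.87 ± 0.12. In glycogen use, the brain form Pygb had 7.32 ± 0.10 beside Pygm, and Gys1 had 10.35 ± 0.13 and the liver form Gys2 5.51 ± 0.07. The phosphatase subunit Ppp1r3c, which brings a phosphatase to glycogen, had 10.998, 11.51, 12.21, 11.56, 11.91 and 11.88 on replicates 7 to 12. Its SD of 0.42 was the largest of the 13 measured glycogen genes.

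Families of pyruvate and fatty acid use were also described by their leading member. Pdk4, the pyruvate dehydrogenase kinase that fasting is known to raise, was the brightest of its family at 12.27 ± 0.28. Pdk2 followed at 10.80 ± 0.14, Pdk1 at 8.004 ± 0.11 and Pdk3 at 6.55 ± 0.16. The muscle fatty acid-binding protein Fabp3 had 11.24 ± 0.19 and the fat cell form Fabp4 11.04 ± 0.31, and Fabp3 was ahead on 5 of 6 arrays. Ucp3, the muscle uncoupling protein, had 9.86 ± 0.17 and Ucp1, that of brown fat, 6.56 ± 0.09. With no fed group, none of these levels can be read as a response to the fast.

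Mitochondrial genes were bright as a class. All 39 measured respiratory chain genes, all 17 of the citric acid cycle and all 17 of fatty acid oxidation lay above the other-tissue level, with medians of 11.78, 10.83 and 10.18. Over all genes the share above that level was 30.1%. Cox5b at 12.90 ± 0.07, Atp5a1 at 12.82 ± 0.12 and Cox5a at 12.53 ± 0.06 led the 39 listed respiratory chain genes, which do not include Uqcrb and ND5, and Mdh2 at 12.16 ± 0.05 led the cycle. Hadh at 11.71 ± 0.04, Etfb at 11.44 ± 0.08 and Hadhb at 11.04 ± 0.11 led fatty acid oxidation. Cytochrome oxidase showed the muscle isoform on top for subunits 6a and 8 but not 7a. Cox6a2 exceeded the widely expressed Cox6a1 by 2.65 and Cox8b exceeded Cox8a by 1.73, while Cox7a2, the widely expressed form, exceeded the muscle form Cox7a1 by 1.69.

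Among regulators the isoform order was clear for some families and not for others. Myf6, the myogenic factor of adult fibres, had 10.49 ± 0.27, with an SD of 0.114 without replicate 7, against 7.37 ± 0.12 for Myod1, 7.27 ± 0.15 for Myog and 3.65 ± 0.06 for Myf5. Mef2c led its family at 11.41 ± 0.13, followed by Mef2d at 9.90 ± 0.09 and Mef2a at 9.79 ± 0.18. The muscle elongation factor Eef1a2 had 12.89 ± 0.08 and the general form Eef1a1 10.68 ± 0.23, and the nitric oxide synthases Nos1 and Nos3 had 9.24 ± 0.17 and 7.01 ± 0.13. Ppard, Ppara and Pparg lay between 6.12 and 5.88, all below the other-tissue level. The calcineurin subunits Ppp3cb and Ppp3ca had 10.07 ± 0.05 and 9.998 ± 0.24, the second with an SD of 0.083 without replicate 7, and their order was not the same on all arrays.

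Of the 57 families listed, 53 had at least 2 measured members. In 48 of them the same member was brightest on all 6 arrays, and the exceptions were the myosin light chains, fatty acid-binding proteins, PPARs, calcineurin and the nicotinic receptor. The gap between first and second member exceeded the median distance between probe sets of 1 gene in 41 families and its 90th percentile in 21. The brightest member was the same by the transgenic mean in 52 of the 53, calcineurin being the exception. When a gene was given by the mean of its probe sets instead, 49 kept their leader. Tropomyosin then led with Tpm2, the calcium pump regulators with Sln, glycerol-3-phosphate dehydrogenase with Gpd2 and calcineurin with Ppp3ca. The 3 probe sets of Tpm1 ranged from 5.52 to 14.24.

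**Figure D2:**
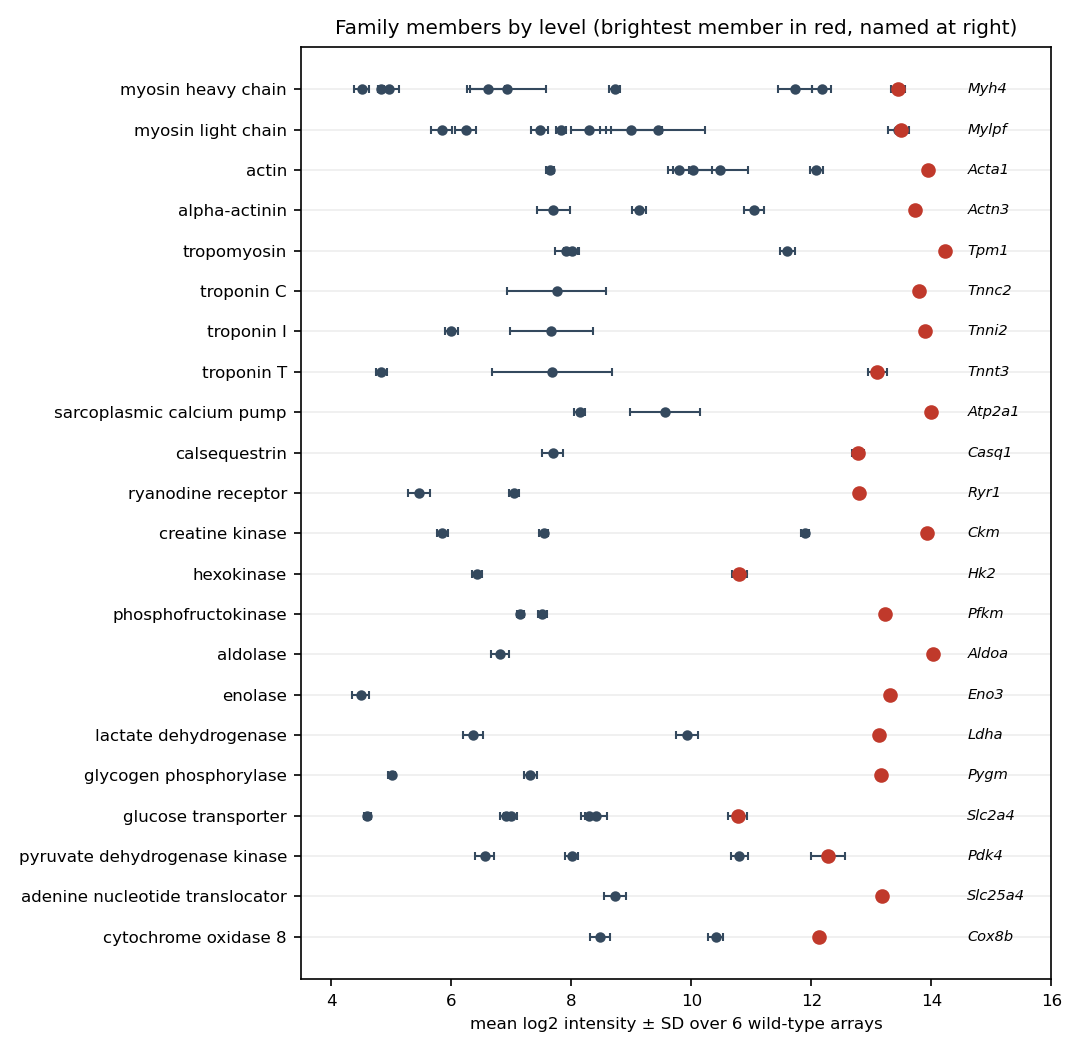
Mean log2 intensity (x axis) of the measured members of 22 families (y axis), with bars for the SD over the 6 wild-type arrays and the brightest member in red with its name at the right. In the 3 troponin families the fast member sits at 13.10 or above and the slow member between 7.67 and 7.75 with a wide bar.

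The label of white, fast muscle was checked against its markers. All 10 fast fibre markers lay between 12.17 and 14.00 and the 11 slow fibre genes between 6.23 and 9.56. Of the slow genes 4 exceeded the other-tissue level, a share near the 30.1% of all genes. Fibroblast genes were well measured, with Dcn at 11.78 ± 0.17, Col1a2 at 10.35 ± 0.20 and Col3a1 at 10.24 ± 0.34, and 5 of the 7 exceeded that level. Of the 12 endothelial genes 4 exceeded it, also near the share of all genes, led by Egfl7 at 9.70 ± 0.32, Flt1 at 8.62 ± 0.13 and Esam at 8.39 ± 0.12.

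Other cell types gave a few bright genes each. Adipose tissue markers were Fabp4, which endothelial cells of muscle also make, and Adipoq at 9.39 ± 0.64, and 3 of the 5 measured exceeded the other-tissue level. Nerve sheath genes Pmp22 and Mbp had 9.34 ± 0.09 and 8.31 ± 0.23, and 2 of the 5 measured exceeded that level. Macrophage genes Csf1r and Lyz2 had 8.75 ± 0.06 and 8.34 ± 0.35. Of the 9 measured macrophage genes 3 exceeded that level, a share near the 30.1% of all genes. Fmod and Thbs4 of tendon had 10.46 ± 0.26 and 9.16 ± 0.24, and 2 of the 5 measured exceeded that level. None of the 4 satellite cell genes, none of the 4 cardiac genes and none of the 9 neuromuscular junction genes exceeded that level. Il6, a cytokine that contracting muscle is known to release, had 3.97 ± 0.24, while Sparc had 10.89 ± 0.17.

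Most genes differed little between the 6 mice. Among the 7382 genes above the median level the SD had a median of 0.114, a 5th percentile of 0.0477 and a 95th percentile of 0.251, and the median was 0.0882 without replicate 7. A span of 2-fold or more between the lowest and the highest array occurred in 80 genes (1.08%), and in 45 without replicate 7. The SD exceeded 0.5 in 26 genes and 1 in 2 genes, Fos and Ddit4. The spread hardly depended on level except at the very top: genes in the brightest 1% had a median SD of 0.0749, and every other band had 0.0988 to 0.117. For 957 genes (12.96%) 1 array lay apart from the other 5 by Dixon's criterion, where chance gives about 5%, and for 734 of these that array was replicate 7.

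The 20 genes with the largest SD came from a few groups. Of the 20, 6 belong to the slow fibre list (Tnnt1, Tnnc1, Myl2, Tnni1, Myh7 and Atp2a2), 3 to the immediate early list (Fos, Egr1 and Dusp1), 4 to the fasting list (Ddit4, Cebpd, Fkbp5 and Mt1) and 1, Adipoq, to the adipocyte list. The remaining 6 were Sgk1, Hp, Ccn1, Cyp2e1, Prg4 and Glul. Replicate 12 was the highest array for 10 of the 20 and replicate 7 the lowest for 7. Among the 100 most variable genes replicate 7 was lowest in 55 and replicate 12 highest in 46, against 31.0% and 22.3% of all genes above the median level. The first principal component of the 7382 genes held 51.9% of the variance and set replicate 7 at 17.7 and replicate 12 at -8.87.

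**Figure D3:**
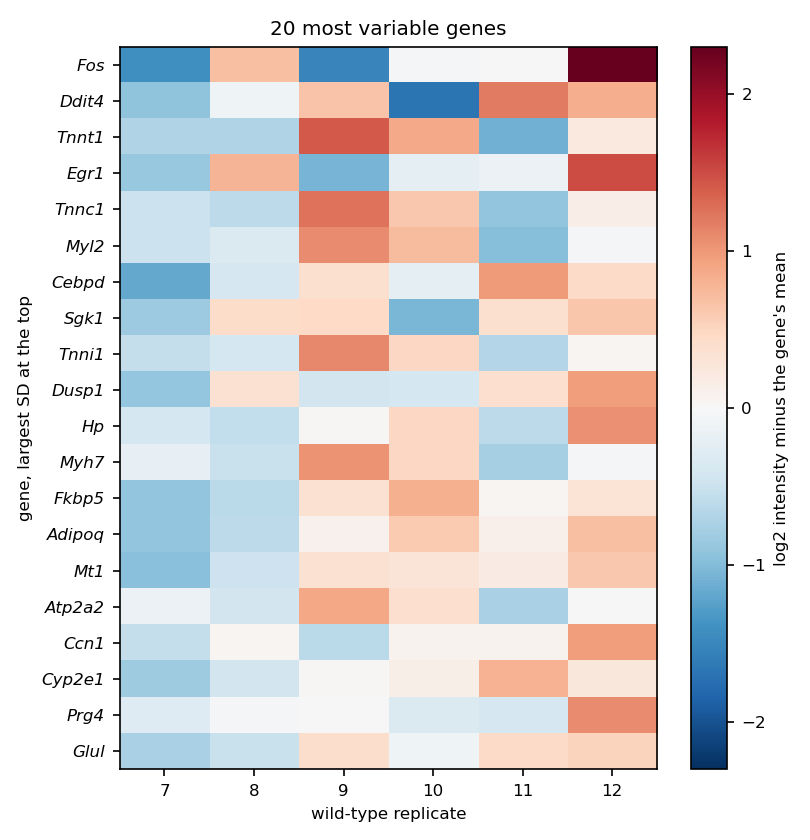
Log2 intensity minus the gene's mean (colour) for the 20 genes with the largest SD (rows, largest at the top) on wild-type replicates 7 to 12 (columns). Slow fibre genes are red on replicates 9 and 10 and blue on 11, while Fos, Egr1, Dusp1 and Ccn1 are reddest on replicate 12.

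Slow fibre genes were high and low on the same arrays. Tnnt1, the slow troponin T, had 6.98, 6.98, 9.09, 8.55, 6.58 and 7.91 on replicates 7 to 12, a 5.70-fold span. The slow troponin C gene Tnnc1 had 7.27, 7.15, 8.997, 8.37, 6.84 and 7.90, and the slow light chain gene Myl2 had 8.95, 9.11, 10.53, 10.17, 8.47 and 9.42. Replicates 9 and 10 were the highest and replicate 11 the lowest for each of them. Myh7 had 6.73, 6.41, 7.95, 7.40, 6.15 and 6.88. This slow myosin thus exceeded the mean other-tissue level of 7.83 on 1 array only, replicate 9, where Ins2 itself read 7.96. The calcium pump Atp2a2 had 9.42, 9.15, 10.46, 9.94, 8.83 and 9.58, in the same order at its ends.

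Of the 11 slow fibre genes, 8 were highest on replicate 9 and 8 were lowest on replicate 11, where the shares over all genes above the median level are 12.2% and 9.997%. The median SD of the list was 0.580, or 0.424 without replicate 9 and 0.644 without replicate 7, against 0.114 with all arrays and 0.0882 without replicate 7 over those genes. The mean of the list was 7.69, 7.74, 8.76, 8.37, 7.42 and 8.08 on replicates 7 to 12. The pump inhibitors Pln and Sln did not share this order: their SDs were 0.19 each, with the highest values on replicates 7 and 8. Casq2 was highest on replicate 9 with an SD of only 0.17 and lowest on replicate 7, and Myoz2 was lowest on replicate 11 but highest on replicate 10. The exact order with replicate 9 first, replicate 10 second and replicate 11 last was shown by 7 of the 11 genes, against 31 of all 7382 genes (0.420%), an order described after the values were seen. Of the 31, 8 had an SD of 0.25 or more: the same 7 slow fibre genes and the phosphodiesterase gene Pde4b.

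Fast fibre genes differed little in signal between arrays. Their list mean was 13.30, 13.44, 13.40, 13.41, 13.41 and 13.42, and the median SD was 0.0745, or 0.0296 without replicate 7. Array signal can level off at such intensities, which was not tested, so this spread does not show whether their RNA varied with that of the slow genes. On replicate 7 Myh4, Myh1 and Tnnt3 read 13.22, 11.90 and 12.77. On that array 5 of the 10 genes were lowest, against 31.0% of all genes above the median level, while Pvalb was highest there at 13.68. Myh2 had 11.73, 12.01, 11.95, 11.72, 11.19 and 11.75, lowest on replicate 11 like the slow genes but highest on replicate 8.

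**Figure D4:**
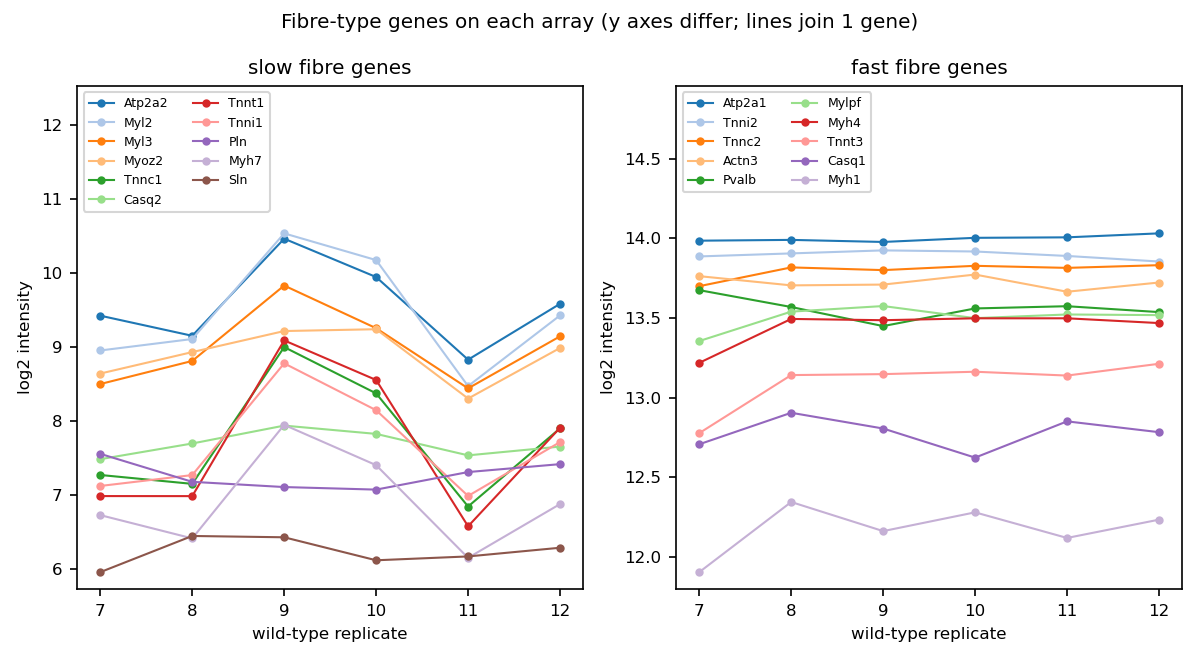
Log2 intensity (y axes, with different ranges) of 11 slow fibre genes (left) and 10 fast fibre genes (right) on wild-type replicates 7 to 12 (x axis), with a line for each gene. Of the slow genes 8 peak on replicate 9 and 8 are lowest on 11, and Pln and Sln do neither, and the fast genes run nearly flat, 5 of the 10 with their lowest value on replicate 7.

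Immediate early genes, which are switched on within minutes by stimuli such as stretch, nerve activity or handling, varied on another axis. Fos, a subunit of the transcription factor AP-1, had 6.49, 8.59, 6.38, 7.84, 7.89 and 10.18 on replicates 7 to 12, a 13.9-fold span. Egr1, a zinc finger factor, had 7.18, 8.82, 6.97, 7.84, 7.91 and 9.54. Both were highest on replicate 12, second on replicate 8 and lowest on replicate 9. Dusp1, a phosphatase that shuts off MAP kinases, had 8.45, 9.69, 8.91, 8.92, 9.71 and 10.30, with its low on replicate 7. Of the 19 measured members 13 were highest on replicate 12, against 22.3% of all genes above the median level. The median SD of the list was 0.333, or 0.226 without replicate 12 and 0.287 without replicate 7. Nr4a1, the brightest of the list at 10.61, was nearly level, with an SD of 0.13.

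Genes that fasting and glucocorticoids are known to raise varied too, in another order of mice. Ddit4, an inhibitor of the growth kinase mTOR, had 7.13, 7.96, 8.71, 6.37, 9.25 and 8.89 on replicates 7 to 12, a 7.37-fold span. Fkbp5, a glucocorticoid target, had 8.64, 8.93, 9.90, 10.37, 9.60 and 9.86. Replicate 10 was thus the lowest for Ddit4 and the highest for Fkbp5. The transcription factor gene Cebpd was lowest on replicate 7 at 8.09 and highest on replicate 11 at 10.26, and the metallothionein Mt1 ran between 7.57 and 9.14 on replicates 7 and 12. Fbxo32, a ubiquitin ligase of muscle breakdown, had 11.69, 11.74, 11.97, 12.52, 12.14 and 12.18.

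Replicate 7 was the lowest array for 13 of the 25 measured fasting genes, and replicate 10 the highest for 9, against 31.0% and 17.2% of all genes above the median level. Pdk4 shows the size of this: it had 11.70 on replicate 7 and 12.35 to 12.45 on the other 5, and its SD fell to 0.04 without replicate 7, against 0.28 with it. Lpin1 and Bnip3 were also lowest on replicate 7, at 10.84 and 10.77. The median SD of the list was 0.280, and 0.225 without replicate 7. The citric acid cycle and fatty acid oxidation genes were lowest on replicate 7 in 11 of 17 and 10 of 17, the respiratory chain genes in 21 of 39 and the ribosomal protein genes in 12 of 19, against 31.0% of all genes above the median level. That array also had the largest Gapdh 3′ minus 5′ difference of the wild-type arrays, given above. Any part of that difference in these values was not tested.

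Several fat cell genes and the lipid synthesis genes Scd1 and Fasn were low on the same arrays. Adipoq, the fat cell hormone adiponectin, had 8.49, 8.79, 9.48, 9.99, 9.50 and 10.08 on replicates 7 to 12, and the lipid droplet gene Cidec 5.71, 5.74, 6.33, 6.70, 6.61 and 6.72. Of the 5 measured fat cell genes 4 were highest on replicate 12 and 4 lowest on replicate 7, and their mean ran from 7.95 to 8.79. Over all genes above the median level these shares were 22.3% and 31.0%. The median SD of the fat cell list was 0.394, and 0.252 within hybridization day. The desaturase Scd1, which both fat and muscle express, had 10.29, 10.30, 10.78, 11.27, 11.40 and 11.27, and Fasn had 6.64, 7.03, 7.27, 7.53, 7.19 and 7.38. Adipoq, Cidec, Scd1 and Fasn had their lowest values on replicates 7 and 8, while the fat cell gene Retn was highest on replicate 7 at 8.08 and lowest on replicate 8. Of the 15 measured lipid synthesis genes 6 were lowest on replicate 7 and 3 on replicate 8, while 4 were highest on replicate 7. Over all genes above the median level those shares were 31.0%, 18.2% and 30.8%. The part of fat in the sample was not tested. Lpl, which frees fatty acids at vessel walls, had 11.65 ± 0.21.

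Among genes of other cell types Lyz2 had an SD of 0.35, Col1a1 one of 0.35 and Comp one of 0.35. Of the 5 tendon genes 4 were lowest on replicate 11, which was also the lowest for 4 of the 7 fibroblast genes and 8 of the 11 slow fibre genes. Over all genes above the median level 9.997% were lowest there. The mean of the tendon list was 8.09, 7.93, 8.03, 7.81, 7.59 and 8.05 on replicates 7 to 12, and it was not high on replicate 10 as the slow list was. Clock genes had a median SD of 0.152. The clock output gene Dbp had 8.80, 7.64, 8.33, 8.43, 8.77 and 8.27 and the repressor Nr1d1 8.74, 8.66, 8.63, 9.49, 8.54 and 9.20, and replicate 8 was lowest for 7 of the 17 clock genes, against 18.2% of all genes above the median level. Times of tissue collection are not given in the sources used here.

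The steadiest genes above the median level had SDs of 0.00949 to 0.0182. They were Crcp, Wnt3a, Taz, Nudt8, Brip1os, Macroh2a1, Tpm1, Mocos, Bmp7 and Hsph1. In the transgenic arrays the SDs of the same 10 genes were 0.0225 to 0.159, with a median of 0.0845, against 0.122 over all genes above the median level. Tpm1 was the steadiest of the 10 there as well, at 0.02.

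The spread of the most variable genes was described again in the 6 transgenic mice, whose values had no part in choosing them. The 100 genes had a median SD of 0.416 in wild-type and 0.304 in transgenic arrays, where the median over all genes above the median level was 0.114 and 0.122. In the transgenic arrays 83 of the 100 were in the top 10% of SDs, as were all 20 of the most variable 20, and 42 were in the top 100. Fos, Tnnt1 and Egr1 had SDs of 1.41, 0.998 and 0.979 in wild-type and 0.70, 0.47 and 0.52 in transgenic arrays. Ddit4 had 1.12 in wild-type and 1.17 in transgenic arrays and Adipoq 0.64 and 0.92 in the same order. The median SD of the slow fibre list was 0.580 in wild-type and 0.436 in transgenic arrays, and that of the immediate early list 0.333 and 0.263. No test compared the spreads, and over the 7382 genes the SDs of both groups had a Spearman rho of 0.373, a value across genes from arrays that share chip design and processing.

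**Figure D5:**
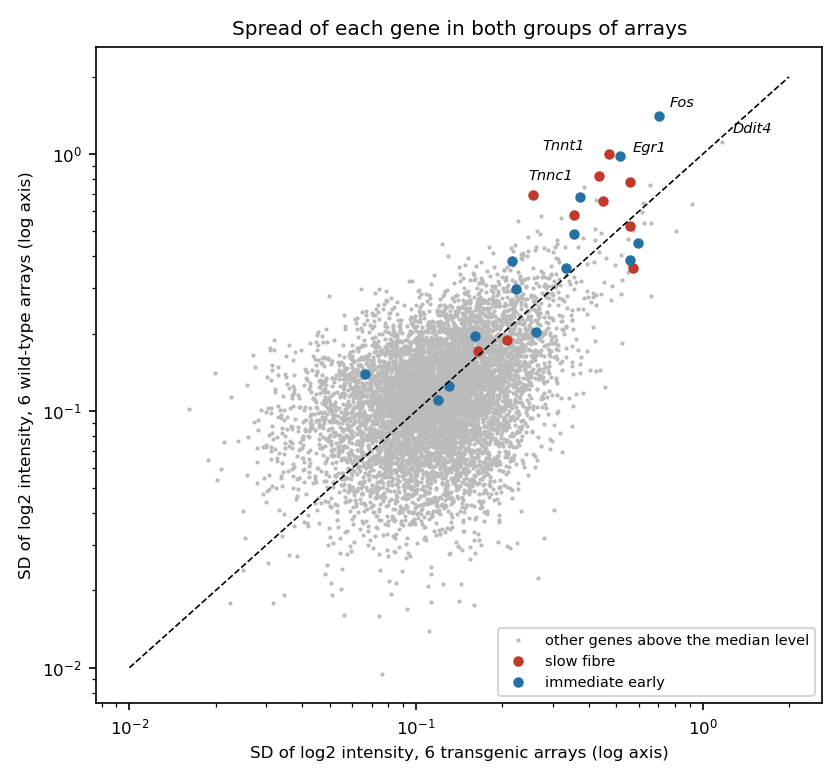
SD of log2 intensity over the 6 wild-type arrays (y axis, log) against that over the 6 transgenic arrays (x axis, log) for 7382 genes above the median level, with slow fibre genes in red, immediate early genes in blue and equal SDs on the dashed line. Fos, Tnnt1, Egr1 and Tnnc1 lie above the line and Ddit4 close to it.

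The arrays were hybridised on 2 days, replicates 10 to 12 on the later and 7 to 9 on the earlier one. With limma's moderated test and Benjamini-Hochberg adjustment over 22626 probe sets, 0 differed between the days (0% called), and 1314 (5.81%) had an unadjusted p under 0.05. The smallest adjusted p was 0.0662, for a probe set of Uqcr10, a subunit of complex III, at 8.85 on the later and 8.06 on the earlier day (difference 0.79 ± 0.08, SE, n = 3 each). Its other probe sets differed by 0.41 and 0.06. In the transgenic arrays the probe set with 0.79 differed by 0.48 and the one with 0.41 by 0.23. Both were higher on the later day, with a limma adjusted p of 0.908 each. Scd1 came next in order of p, at 11.31 on the later and 10.46 on the earlier day, with an adjusted p of 0.585, while in the transgenic arrays the difference was -0.60.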

How the data were processed

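The 6 wild-type arrays were taken from the sample titles, and the 6 transgenic arrays served for repeat descriptions and for alternatives of the day contrast. The authors deposited linear probe set intensities processed with RMA, per the submitters' processing notes, with no version or probe definition given in the sources used here. RMA equalises arrays and compresses small and large signals. Present or absent calls and probe-level data were not used here. Hybridization day, chip lot and animal number came from the deposited settings text of each array, classed as other than expression data. All values are log2 of these intensities, with no pseudocount added. Of 22690 probe sets 64 controls were removed. Of the remaining 22626, 20380 carried 1 gene symbol in the platform annotation, 691 several and 1555 none listed, and 20351 matched RefSeq (GRCm38.p6) by Entrez identifier. Only probe sets with 1 symbol were named, and the brightest over the wild-type arrays stood for each of 12393 genes. The array number limits the precision, and values of other tissues' genes set the level below which presence is open.

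Levels, families and spreads were described without tests. The contrast of hybridization days used lmFit and eBayes from limma 3.58.1 (R 4.3.3), two-sided, at an adjusted p threshold of 0.05, a step tested on simulated data. Means and SDs used Python 3.11.15 with pandas 2.3.3. Named genes were the 30 brightest, family members, the 20 largest and 10 smallest SDs above the median level, and of each list the up to 4 brightest and 4 most variable. Pde4b, Uqcr10 and Paip1 were chosen after their values were seen. Families, lists and members were chosen with earlier results of these data known. Alternatives were another probe set rule, quantile normalization of the 6 arrays, another measure of spread, no level filter, day means removed and each array left out.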

Additional observations from a re-analysis of the deposited data

Results flagged for a closer look

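A value was looked at again where 1 of the 6 wild-type arrays lay apart from the other 5: its gap to the nearest other array, as a share of the range over the 6, passed Dixon's critical value of 0.625. Chance alone marks about 5% of such groups. Of the 168 genes named in the report 23 (13.7%) were marked, 16 of them by replicate 7, 3 each by replicates 11 and 12, 1 by replicate 10 and 0 by replicates 8 and 9. The share over all 7382 genes above the median level was close to this, at 12.96%.

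Replicate 7 lay apart in its mean correlation with the other wild-type arrays, with a share of 0.735, and in the 3′ minus 5′ differences of the control probe sets of Gapdh (0.667) and actin (0.720). It lay below the others in the means of the fast fibre list (0.740) and the citric acid cycle list (0.655). Low single genes were Myh4 (0.893), Pdk4 (0.867), Myl1 (0.851), ND5 (0.832), Tnnt3 (0.831), Tnnc2 (0.758), Uqcrb (0.753), Pgk1 (0.720) and Uqcr10 (0.716). Ppp3ca (0.683), Mylpf (0.655), Ins2 (0.638) and Myf6 (0.636) were low there as well. Replicate 7 was high for Ckm (0.684), Nos1 (0.670) and Ryr2 (0.642).

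Replicate 11 was low for Slc16a1 (0.734), Actn2 (0.652) and Myh2 (0.641). Replicate 12 was high for Prg4 (0.749), a lubricating glycoprotein of joints and tendon sheaths, and low for Tnnt2 (0.667) and Acta1 (0.632). Replicate 10 was high for Slc2a4 (0.639).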

How the results depend on the processing

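The level ranking is measured by how many of the 100 brightest genes stayed among the 100 brightest. It kept 60 when the dimmest probe set stood for each gene and 67 with the mean over probe sets, and 98 to 99 when 1 array was left out. The 2 probe set rules change the level only of genes with several probe sets, 40.0% of all genes. Why genes left the 100 brightest was not tested. Isoform families kept the same brightest member in 49 and 48 of 53 under those 2 probe set rules, and in 52 to 53 with 1 array left out. For the variation between arrays, 55 of the 100 most variable genes stayed when the scaled median absolute deviation replaced the SD, and 67 to 90 when 1 array was left out, the lowest without replicate 7. The cause was not tested.

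For hybridization day, 1 probe set, Uqcr10, passed when only those above the median level were tested (limma, adjusted p = 0.0489). Leaving out 1 array gave 0 to 2 calls: Paip1, lower on the later day, without replicate 8, and Scd1 and Cidec, higher on the later day, without replicate 9. An intensity trend, quantile normalization, all 12 arrays and, as an alternative chosen after seeing the data, the transgenic arrays gave 0 each, with smallest adjusted p of 0.0576, 0.1512, 0.0517 and 0.1273. No paired analysis was possible because the wild-type and transgenic arrays share no replicate number, and the arrays of the 2 hybridization days carry different numbers.

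Of the 168 named genes, the level of 73 moved by more than its SD with the dimmest probe set and of 64 with the mean over probe sets, and of 0 under quantile normalization. The SD of the fast fibre list fell to 0.0296 without replicate 7, against 0.0745. Without present or absent calls, dim genes have no measured floor.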
